A study of Mus musculus with 12 samples.

Results

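Lymphokine-activated killer (LAK) cells, which are natural killer (NK) cells expanded with interleukin 2 (IL-2), were set against DN3 thymocytes, T cell precursors that carry neither CD4 nor CD8 and are rearranging the T cell receptor beta locus. The comparison used the 4 arrays titled LAK and the 4 arrays titled DN3, 8 of the 12 bead arrays of a study of induced T-to-NK (ITNK) cells. ITNK cells are made from DN3 thymocytes by deleting the transcription factor Bcl11b, and the LAK and DN3 arrays give the natural killer end and the parental T cell end of that conversion. The 4 ITNK arrays took part in the normalization and the estimate of the spread, and their own differences are not described.

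The LAK arrays are labelled IL-2-expanded NK cells with strain C57B8, and the DN3 arrays parental T cells with strain C57B7. These names differ from that of the ITNK arrays only in the last digit and were not used. One treatment and growth text stands on all 12 samples and names Cre-ERT2; Bcl11bflox/flox mice, in which a tamoxifen-inducible recombinase deletes Bcl11b. It gives 1 µM 4-hydroxytamoxifen for 48 h in medium with 5 ng/ml Flt3 ligand and 5 ng/ml interleukin 7, and culture of sorted DN3 thymocytes on OP9-DL1 with 100 ng/ml IL-2, with collection at 14 days. OP9-DL1 cells are stromal cells of bone marrow origin that supply a Notch ligand, Delta-like 1. For ITNK cells of the spleen the same text gives IL-2 at 1000 U/ml over 6 to 9 days. It does not say which steps the LAK or DN3 cells went through, whether the control cells carried the floxed allele, nor how old the mice were, and whether the DN3 RNA came from fresh or cultured cells is likewise not given. The labels number the 4 arrays of each group without naming animals or cultures behind them, so p-values measure the spread between these arrays, which may be technical.

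Natural killer cells kill target cells by releasing perforin and granzymes from preformed granules. Their activity is set by the balance of inhibitory and activating receptors, many of which pair with small signalling adaptors, and IL-2 expands them and loads their granules. DN3 thymocytes are the stage at which Notch signals, the recombinases and the pre-T cell receptor commit a precursor to the T lineage, and Bcl11b is known to be needed to complete and hold that commitment.

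Levels below are log2 normalized intensities, so 1 unit is a 2-fold step, and a difference is the LAK mean minus the DN3 mean with its standard error (SE). A gene passed when the moderated test of limma gave a Benjamini-Hochberg adjusted p under 0.05 over all 8100 genes tested. A probe was detected on an array when its signal had a detection p under 0.01 against the negative control beads. The LAK arrays detected 11814 to 12670 probes and the DN3 arrays 11964 to 12595. The group means of 12245 ± 411 and 12273.5 ± 269.5 probes (SD, n = 4 each) gave a 2-sided exact permutation p of 0.886, where 4 against 4 arrays can reach 0.0286. All LAK arrays lay on slide 1 and all DN3 arrays on slide 2, so slide and cell type cannot be told apart for this pair. Across genes, which are not independent replicates, the median correlation was 0.985 between LAK arrays, 0.987 between DN3 arrays and 0.836 between a LAK and a DN3 array. In RNA from a whole population, fewer cells of a type and less RNA per cell cannot be told apart.

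Genes that define each cell type matched the labels for most markers and were undetected for a few. Klrb1c, which carries the NK1.1 epitope, stood at 7.55, 7.58, 7.92 and 7.54 on the LAK arrays and 4.37, 4.46, 4.27 and 4.39 on the DN3 arrays. Klrd1, the CD94 chain of the NKG2 receptors, stood at 12.05, 12.10, 11.71 and 11.82 in LAK against 6.93, 7.76, 7.89 and 6.95 in DN3, and Klrk1, the NKG2D receptor, at 7.72, 7.62, 7.16 and 7.74 in LAK against 4.53, 4.37, 4.65 and 4.46 in DN3. For these 3 receptors every LAK array was above every DN3 array. Perforin (Prf1) and the transcription factors Eomes and Tbx21 did the same, with values given below. The probes of Ncr1 (NKp46), Gzmb (granzyme B) and Itga2 (the DX5 antigen), which also define NK cells, were detected on 0 of 4 LAK arrays and 0 of 4 DN3 arrays. Their raw signals were 76.5 to 82.6, 69.2 to 76.8 and 74.3 to 88.9 on the LAK arrays, where the median probe had 71.4 to 75.3. Among the DN3 markers Ptcra, Rag1, Dntt, Notch1, Bcl11b, Cd3e and Il2ra were all higher in DN3. The probes of Rag2, Cd4, Cd8a and Cd5 were detected on no LAK and no DN3 array, while Cd8b1 was strongly detected in DN3. Tcf7 and Lck were not analysed here.

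The contrast was broad. Of 8100 genes, 4903 passed the test (60.5%): 2320 were higher in LAK cells (28.6%) and 2583 lower (31.9%). The difference was at least 2-fold for 790 of the higher genes (9.75% of all genes tested) and 827 of the lower ones (10.2%), and at least 4-fold for 291 and 269. The 4 LAK and 4 DN3 arrays did not overlap for 4568 genes (56.4%). On all 4 LAK arrays and no DN3 array 283 genes were detected, and 367 genes on all 4 DN3 arrays and no LAK array. Over all genes the median difference was -0.02 and the median size of a difference 0.44. Quantile normalization gives every array the same distribution. When the arrays were scaled to a common median instead, the median difference of all genes became 0.24 and the split 3199 higher and 1361 lower, 70.2% against 47.3% higher among the genes that passed. Small differences in a large group of genes are therefore read against that shift. It was larger for some lists, and the median of cytosolic ribosomal protein genes moved from 0.04 to 0.56. Differences of several units lie well outside such a shift, while those just beyond 1 unit do not. With slide as a block, which the ITNK arrays on both slides make possible, 3322 genes passed. Pairs of counts given for either alternative are genes past the test that were higher and lower in LAK, in that order. Counts within gene lists are read against the shares of all genes, 28.6% higher and 31.9% lower. Between the ITNK arrays of slide 2 and slide 1 the median difference was 0.007 after quantile normalization. That step keeps such a median small, so it does not measure a slide effect. Raw median signals of the ITNK arrays were 71.4 and 71.5 on slide 1 and 63.3 and 62.4 on slide 2. Those of the LAK arrays were 71.4 to 75.3 and those of the DN3 arrays 58.9 to 61. After normalization 25 genes (0.309%) differed at least 2-fold between the ITNK arrays of the slides. Of these, 15 were among the 1617 genes with a difference of that size in the present contrast.

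**Figure D1:**
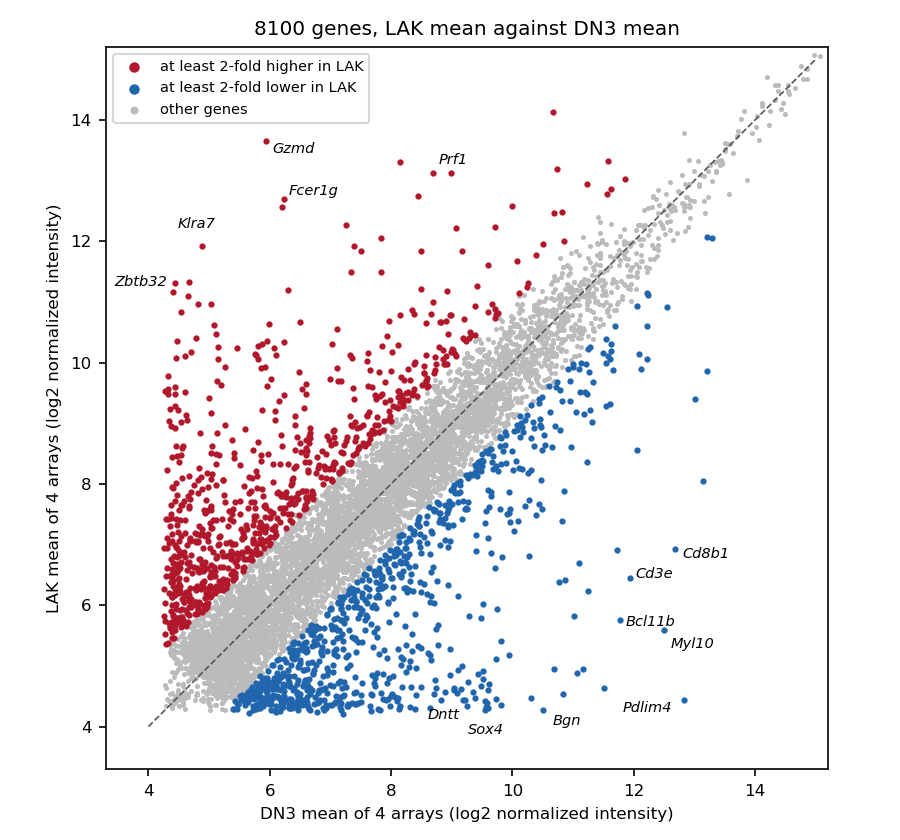
Mean log2 normalized intensity of 8100 genes on the 4 LAK arrays (vertical axis) and the 4 DN3 arrays (horizontal axis). Red points are the 790 genes at least 2-fold higher in LAK cells, blue points the 827 at least 2-fold lower, and the dashed line marks equal means. Named genes of the killer programme, such as Gzmd, Klra7 and Prf1, lie far above the line, and Pdlim4, Myl10, Bcl11b, Cd3e and Cd8b1 far below it.

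The 15 genes with the largest excess in LAK cells were mostly receptors, adaptors and granule proteases. They were Gzmd, Klra7, Zbtb32, Gzme, Klre1, Ccl4, Avil, Fcer1g, Tyrobp, Asb2, Klra4, Klra3, Gzmg, Ctsg and Speer3, with differences of 5.55 to 7.71 between measured means. Zbtb32, Gzme, Tyrobp, Klra3 and Ctsg were detected on no DN3 array, and Klra7, Klre1, Avil, Asb2, Klra4, Gzmg and Speer3 on 1. Their place in the ranking is therefore uncertain. Zbtb32, a repressor of lymphocyte activation genes, had 11.01, 10.94, 11.82 and 11.48 on the LAK arrays against 4.32, 4.75, 4.37 and 4.34 on the DN3 arrays. Since it was detected on no DN3 array, only a nominal bound can be given, at least 113-fold higher in LAK (adjusted p 5.12e-12). Such a bound sets the LAK mean against the lowest level of a detected probe on each DN3 array, or against the gene's own value where that was higher. That lowest level was 4.25 to 4.41 on the LAK arrays and 4.28 to 4.51 on the DN3 arrays. Undetected probes can lie above it, as that of Itga2 did on LAK 2, at 4.99. Folds given as at least a value are therefore conventions of this processing and not strict lower limits. Avil, the actin-severing protein advillin, had 10.69, 10.86, 11.76 and 11.10 in LAK against 4.38, 5.26, 4.44 and 4.55 in DN3, a difference of 6.44 ± 0.28 (SE). Asb2, a subunit of a ubiquitin ligase that degrades filamins, had 11.29, 11.13, 10.69 and 10.71 in LAK against 4.36, 4.87, 5.55 and 4.47 in DN3, a difference of 6.14 ± 0.23 (SE). In both genes the 4 LAK arrays lay more than 5 units above every DN3 array. Speer3, a member of a multicopy family, spread widely in LAK cells, with 9.01, 10.60, 11.92 and 10.95 there against 5.36, 5.02, 4.98 and 4.92 in DN3, and LAK 1 was the lowest LAK array.

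The 15 genes with the largest deficit in LAK cells held T lineage genes and other genes. They were Pdlim4, Myl10, Fam169b, Arpp21, Bgn, Dpp4, Tubb2b, Bcl11b, Trat1, Cd8b1, Cd163l1, Cd3e, Cxcl12, Cd81 and Pld4. Pdlim4, Arpp21, Bgn, Tubb2b, Trat1, Cxcl12, Cd81 and Pld4 were detected on no LAK array, so their place in this order is uncertain too. Pdlim4, a PDZ and LIM domain protein of the actin cytoskeleton, had 4.45, 4.40, 4.37 and 4.54 on the LAK arrays, none of them detected, against 12.86, 12.72, 12.77 and 12.94 on the DN3 arrays. It was at least 333-fold lower in LAK (adjusted p 1.4e-12), and its second probe, also detected on no LAK array, had means of 4.27 in LAK and 7.56 in DN3. Myl10, a myosin light chain, had 5.74, 5.44, 5.69 and 5.54 in LAK against 12.48, 12.42, 12.62 and 12.48 in DN3, and Fam169b had 5.18, 4.31, 4.57 and 4.52 in LAK against 11.51, 11.30, 11.69 and 11.55 in DN3. Dpp4 is the surface peptidase CD26, and it had 4.99, 4.56, 5.24 and 5.03 in LAK against 11.23, 11.15, 11.34 and 10.97 in DN3. For these 4 genes the spread within each group was under 1 unit and the groups were more than 5 units apart. Tubb2b, a beta tubulin, was lower, by an amount that its probes did not share. Its brightest probe was detected on no LAK array and was at least 72.8-fold lower, while a second one was detected on all 4 and differed by -2.82. Cd81, a tetraspanin, was at least 38-fold lower in LAK and Pld4, an endolysosomal nuclease, at least 38.7-fold lower (adjusted p 6.72e-12, 1.7e-10 and 1.7e-10). Bgn and Cxcl12 belong to the stromal markers and are given with them.

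**Figure D2:**
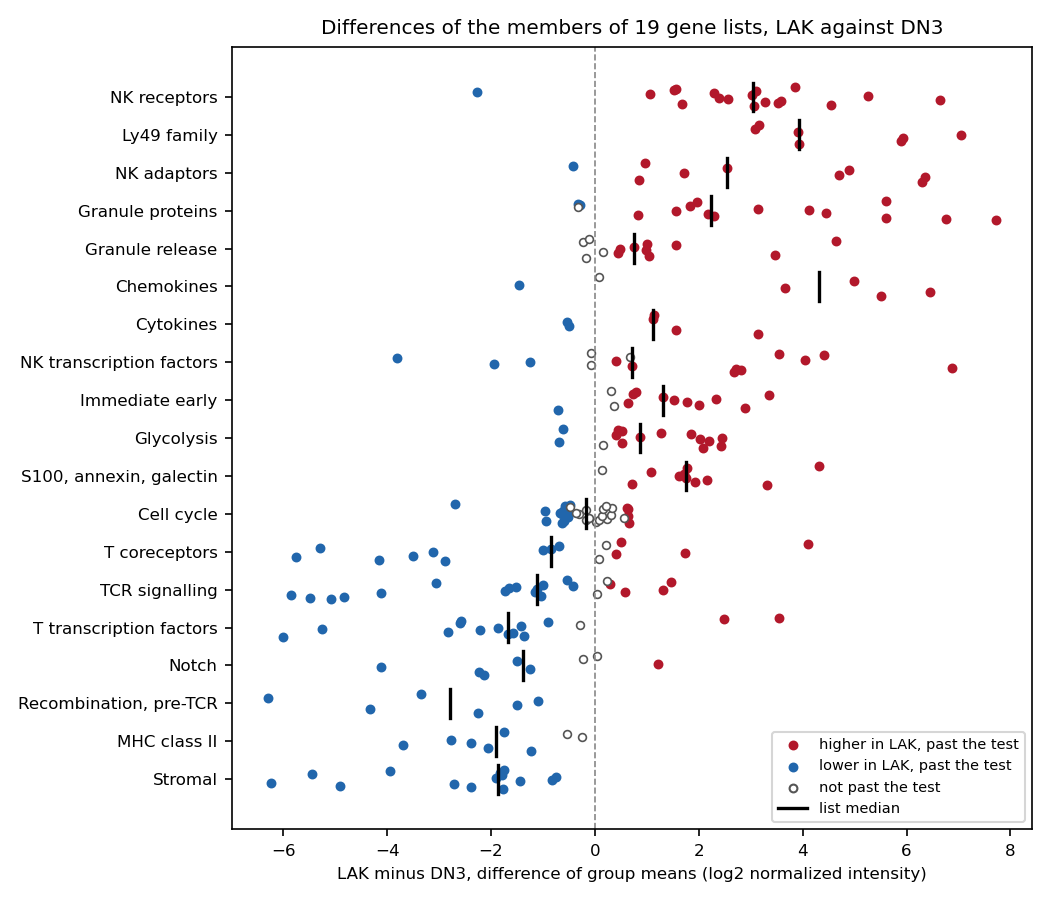
Difference of group means, LAK minus DN3, in log2 units for the tested members of 19 gene lists. Filled points passed the test (red higher in LAK, blue lower), open points did not, black bars are list medians, and a gene undetected in a group is drawn at its measured mean. Killer cell lists lie to the right of 0 with medians up to 4.32, and the T cell, recombination and stromal lists lie to the left.

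Natural killer receptors outside the Ly49 family were almost all higher in LAK cells. Of 18 tested members 17 were higher, against 28.6% of all genes, and 1 was lower, with a median difference of 3.04 against -0.02 over all genes. With undetected members set to their bounds the median was 3.02. Of these members 10 were detected on no DN3 array and passed the filter through other arrays, so their count is a description. The same holds for members of the lists below that were detected in only 1 of the groups. Klre1, which pairs with Klri1 or Klri2, had 11.37, 11.59, 11.01 and 11.33 in LAK against 4.32, 5.33, 4.62 and 4.43 in DN3, a difference of 6.65 ± 0.19 (SE; adjusted p 5.12e-12). Klrg1, a receptor for cadherins that marks mature NK cells, had 8.96, 9.19, 9.90 and 10.05 in LAK against 4.28, 4.27, 4.23 and 4.30 in DN3 and was at least 35-fold higher (adjusted p 2.67e-10). LAK 3 and LAK 4 were the higher LAK arrays for Klrg1, and all 4 DN3 arrays sat near 4.3. Klrd1, whose values are given above, differed by 4.54 ± 0.20, and Klrk1 and Klrb1c were at least 8.08-fold and 9.38-fold higher in LAK. Fcgr3, the receptor for IgG that triggers antibody-dependent killing, had 8.51, 8.35, 8.62 and 7.96 in LAK against 4.30, 4.66, 4.76 and 4.31 in DN3 and was at least 13.9-fold higher. The single member in the other direction was Slamf6 (Ly108), with 4.47, 4.43, 4.46 and 4.57 in LAK, detected on no array, against 6.68, 6.48, 6.46 and 7.38 in DN3. It was at least 4.81-fold lower in LAK (adjusted p 4.74e-08). Its relative Slamf7 (CRACC) stood at 7.28, 8.12, 8.10 and 7.09 in LAK and 4.53, 4.62, 4.54 and 4.47 in DN3, so the groups were reversed in order between these SLAM family receptors. Weaker excesses were those of Cd226 (DNAM-1), with 1.06 ± 0.30 and a call lost when all detected probes were averaged, of Cd96, with 1.52 ± 0.14, and of Tigit, at least 2.89-fold, 3 receptors that share nectin ligands.

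The Ly49 receptors, lectin-like receptors of the Klra genes that mostly bind MHC class I, were detected in part in LAK cells. Of 13 on the array 7 passed the detection filter, 5 of them detected on no DN3 array and the other 2 on 1. They passed it through other arrays, so that these 7 were higher in LAK is given as a description. The bounds of those 5 were at least 7.88-fold for Klra10 to at least 58.1-fold for Klra3. Klra7 had 11.99, 12.39, 11.38 and 11.93 in LAK against 4.59, 5.68, 4.74 and 4.50 in DN3, a difference of 7.04 ± 0.24 (SE; adjusted p 2.03e-11). Klra4 had 11.03, 11.65, 10.24 and 10.93 in LAK against 5.03, 5.34, 4.97 and 4.80 in DN3, and Klra3 had 10.42, 10.85, 9.79 and 10.38 in LAK against 4.35, 4.70, 4.43 and 4.39 in DN3. Klra1, the remaining leading member, stood at 8.93, 8.56, 7.61 and 8.78 in LAK and 4.52, 4.75, 4.45 and 4.44 in DN3. LAK 3 was the lowest LAK array for all 7 Ly49 genes, and DN3 2 the highest DN3 array for 4 of them. The Klra genes, like the Klrb1 genes, are so alike in sequence that a probe may read several of them, and which copy a value measures is uncertain.

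Most of these receptor genes neighbour each other on mouse chromosome 6. In the RefSeq gene table (GRCm38.p6), 76 genes are annotated from Klrb1a to Klra1, and 19 of them were tested. Of these, 17 were higher in LAK cells (as were 28.6% of all genes tested), 15 of them Klr genes. The others were Cd69, an activation antigen of the same lectin family, and Gabarapl1, an autophagy protein. Several of the Klr genes, among them Klra1, Klra3, Klrb1c, Klri1, Klri2 and Klrk1, were detected on no DN3 array and passed the filter through other arrays. The count for this region overlaps with the receptor counts above and is a description. Clec2i, a ligand of Klrb1 receptors, was lower, with 6.87, 6.62, 6.68 and 6.60 in LAK against 7.09, 7.14, 7.48 and 7.37 in DN3 (difference -0.58 ± 0.15, SE), a call lost under median scaling. Its relative Clec2d did not pass, with 9.70, 10.03, 9.93 and 9.67 in LAK and 9.75, 9.84, 10.10 and 9.86 in DN3. Clec2i, Clec2d and Gabarapl1 were picked by position, after the values were seen.

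The adaptors that carry the signal of activating receptors were higher with them. Of 9 tested, 8 were higher in LAK and 1 lower (8 and 0 under median scaling), with a median of 2.54. Among the 9, 3 were detected on no DN3 array and passed the filter through other arrays. Tyrobp (DAP12), the adaptor of activating Ly49 receptors, had 10.81, 10.78, 11.10 and 10.62 in LAK against 4.28, 4.77, 4.85 and 4.24 in DN3 and was at least 74.5-fold higher (adjusted p 1.79e-12). Fcer1g, the gamma chain that serves Fcgr3, had 12.41, 12.90, 12.69 and 12.23 in LAK against 5.65, 6.91, 6.08 and 6.18 in DN3, a difference of 6.36 ± 0.27 (SE). Both genes were close to level over the 4 LAK arrays, and the DN3 arrays stayed more than 5 units below them. Lat2, the linker NTAL, differed by 4.88 ± 0.18, and Sh2d1b1 (EAT-2), an adaptor of SLAM receptors, was at least 24.1-fold higher. Hcst (DAP10), the adaptor of Klrk1, had a small excess, with 10.36, 10.54, 10.30 and 10.06 in LAK against 9.09, 9.35, 9.96 and 9.50 in DN3 and a difference of 0.84 ± 0.16 that was not past the test with slide as a block. The member in the other direction was Vav1, an exchange factor used by T and NK cell receptors, with 9.37, 9.22, 9.28 and 9.31 in LAK against 9.84, 9.70, 9.73 and 9.60 in DN3 (difference -0.42 ± 0.09, SE), a call lost under median scaling and with slide as a block.

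Cytotoxic granule proteins held Gzmd, the gene with the largest excess in LAK cells. Of 16 members tested, 13 were higher in LAK, 2 lower and 1 did not pass, with a median of 2.23 and a split of 13 and 0 under median scaling. Among the 16, 4 were detected on no DN3 array and passed the filter through other arrays. Gzmd had 13.55, 13.54, 13.84 and 13.66 on the LAK arrays against 4.67, 7.94, 5.35 and 5.78 on the DN3 arrays, a difference of 7.71 ± 0.71 (SE; adjusted p 4.41e-07). The LAK arrays were nearly level, and among the DN3 arrays DN3 2 stood highest, still more than 5 units below the lowest LAK array. Gzme had 11.06, 10.73, 11.61 and 11.25 in LAK against 4.26, 4.67, 4.38 and 4.35 in DN3 and was at least 104-fold higher (adjusted p 6.95e-11). Gzmg had 9.76, 10.11, 11.42 and 10.32 in LAK against 4.67, 5.14, 4.75 and 4.60 in DN3, and LAK 3 was the highest array for Gzmd, Gzme and Gzmg alike. Perforin (Prf1), the pore-forming protein of the granule, had 12.79, 13.04, 13.64 and 13.06 in LAK against 8.39, 8.69, 8.89 and 8.76 in DN3, a difference of 4.45 ± 0.27 (SE). This Prf1 probe was detected on all 4 DN3 arrays, while the second one was detected on none of them, with means of 10.97 in LAK and 4.54 in DN3. Ctsg, the serine protease cathepsin G, had 9.10, 9.40, 11.39 and 10.39 in LAK, with LAK 3 the highest, against 4.54, 4.30, 4.49 and 4.50 in DN3, and was at least 47-fold higher. The granule membrane proteins did not follow the contents. Lamp1 had a difference of -0.29 ± 0.11, and Lamp2 one of -0.32 ± 0.10 on its representative probe (adjusted p 0.0379 and 0.014), while other Lamp2 probes differed by 0.49 and 0.82. Neither Lamp call was kept under median scaling. Ctsc, which activates granzymes, did not pass, with 9.66, 9.64, 9.83 and 9.51 in LAK and 9.97, 10.09, 10.01 and 9.84 in DN3.

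Granzymes D, E and G lie side by side on chromosome 14 with Gzmn, Ctsg and the mast cell proteases. Of 25 genes annotated in that cluster 6 were tested, and the 5 protease genes among them were all higher in LAK. Gzme, Gzmn and Ctsg were detected on no DN3 array and passed the filter through other arrays, so this is a description. The promoters of Gzmd and Gzme are shown because these neighbours moved together and their promoters are much alike. Probe and transcript sequences were not compared, so whether probe signal is shared between the copies was not tested. Each is a RefSeq stretch of 300 bases on GRCm38.p6 that runs from before the gene's start to shortly after it, on the minus strand, at chr14:56132544-56132843 for Gzmd and chr14:56120576-56120875 for Gzme. Capitals mark none of their bases, since neither holds the E-box letters searched in the T cell promoters below.
Gzmd: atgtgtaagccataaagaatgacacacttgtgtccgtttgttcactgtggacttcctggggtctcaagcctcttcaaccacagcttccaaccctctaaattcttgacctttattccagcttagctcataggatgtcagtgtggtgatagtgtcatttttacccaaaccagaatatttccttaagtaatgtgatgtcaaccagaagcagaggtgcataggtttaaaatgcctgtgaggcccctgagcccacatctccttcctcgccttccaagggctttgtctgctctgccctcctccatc
Gzme: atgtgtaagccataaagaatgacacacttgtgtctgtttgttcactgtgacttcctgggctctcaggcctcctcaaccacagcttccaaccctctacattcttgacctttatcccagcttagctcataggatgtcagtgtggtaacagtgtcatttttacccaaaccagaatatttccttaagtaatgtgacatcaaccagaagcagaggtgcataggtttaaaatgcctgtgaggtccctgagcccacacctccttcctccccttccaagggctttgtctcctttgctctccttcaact
Over 299 aligned bases the Gzmd and Gzme promoters were identical at 281, or 94.0%, and those of Gzmd and Gzmg at 256 of 284, or 90.1%.

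The machinery that moves and fuses granules was partly higher in LAK cells. Of 13 genes tested 9 were higher in LAK, 0 lower and 4 did not pass. Sytl2, a synaptotagmin-like protein that docks granules, had 10.63, 10.58, 10.79 and 10.52 in LAK against 6.09, 5.92, 6.18 and 5.75 in DN3, a difference of 4.65 ± 0.13 (SE; adjusted p 3.45e-12). Stx11, a syntaxin needed for killing, had 8.07, 8.40, 9.13 and 8.41 in LAK against 5.56, 4.83, 5.07 and 4.68 in DN3, and Unc13d (Munc13-4), which primes granules, differed by 1.03 ± 0.10. Stx7, an endosomal syntaxin, differed by 1.57 ± 0.15. Rab27a, the GTPase that recruits Sytl2 and Unc13d to granules, had 11.08, 11.11, 11.25 and 11.15 in LAK and 11.42, 11.30, 11.33 and 11.23 in DN3 and did not pass (adjusted p 0.128). Sytl3 likewise had 8.40, 8.40, 8.82 and 8.32 in LAK and 8.62, 8.62, 8.53 and 8.62 in DN3.

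Ligands of death receptors were led by Fas ligand. Fasl had 9.06, 8.91, 8.77 and 8.91 in LAK against 4.34, 4.52, 4.41 and 4.46 in DN3 and was at least 22.2-fold higher (adjusted p 6e-10), with the groups more than 4 units apart. Of 8 TNF family ligands tested 5 were higher, 2 lower and 1 did not pass, with 6 and 2 under median scaling. Tnf differed by 1.31 ± 0.14 and Tnfsf10 (TRAIL) by 1.12 ± 0.16. Ltb, the membrane anchor of lymphotoxin, was lower, with 8.07, 8.24, 7.55 and 7.72 in LAK against 8.53, 9.03, 9.76 and 8.76 in DN3, and DN3 3 the highest. Tnfsf14 (LIGHT) did not pass, with means of 6.09 ± 0.28 in LAK and 5.77 ± 0.20 in DN3 (SD, n = 4 each).

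Chemokine genes showed large differences and a wide spread between LAK arrays. Of 6 tested 4 were higher and 1 lower, and Cxcl9 was detected in neither group. Ccl4 had 12.62, 12.96, 12.17 and 13.01 in LAK against 5.69, 6.70, 6.80 and 5.75 in DN3 and Ccl3, at least 45.2-fold higher, had 9.99, 10.57, 9.32 and 10.55 in LAK against 4.53, 4.68, 4.69 and 4.54 in DN3. Both are inflammatory chemokines that attract leukocytes. Xcl1, lymphotactin, had 12.74, 12.47, 11.55 and 12.26 in LAK against 6.37, 7.88, 7.93 and 6.87 in DN3, a difference of 4.99 ± 0.36 (SE). Ccl5 had 8.83, 10.67, 8.68 and 10.24 in LAK, with LAK 2 and LAK 4 above LAK 1 and LAK 3, against 5.10, 6.06, 7.30 and 5.36 in DN3, with DN3 3 the highest. Ccl9 went the other way, with 5.48, 6.28, 5.57 and 6.57 in LAK against 8.39, 6.83, 7.21 and 7.31 in DN3 (difference -1.46 ± 0.31, SE), while it neighbours Ccl3, Ccl4 and Ccl5 on chromosome 11. DN3 1, the highest DN3 array for Ccl9, was also the highest for most stromal genes, and the part of stromal cells in the Ccl9 value was not tested. The call of Ccl9 was lost with slide as a block.

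Of 6 secreted cytokines 4 were higher and 2 lower (4 and 0 under median scaling). Interferon gamma (Ifng) had 7.79, 8.0, 7.37 and 7.71 in LAK against 4.47, 4.65, 4.66 and 4.54 in DN3 and was at least 8.76-fold higher (adjusted p 3.29e-08). Csf2 (GM-CSF) was at least 2.84-fold higher. Tgfb1 and Osm (oncostatin M) were detected in both groups, with differences of 1.12 ± 0.11 and 1.13 ± 0.19. Il15, detected on all 4 DN3 arrays and no LAK array, was at least 1.42-fold lower, a difference that turned to 0.091 and lost its call with slide as a block. Il16 was lower, with means of 7.07 ± 0.17 in LAK and 7.61 ± 0.11 in DN3 (SD, n = 4 each), a call lost under median scaling.

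**Figure D3:**
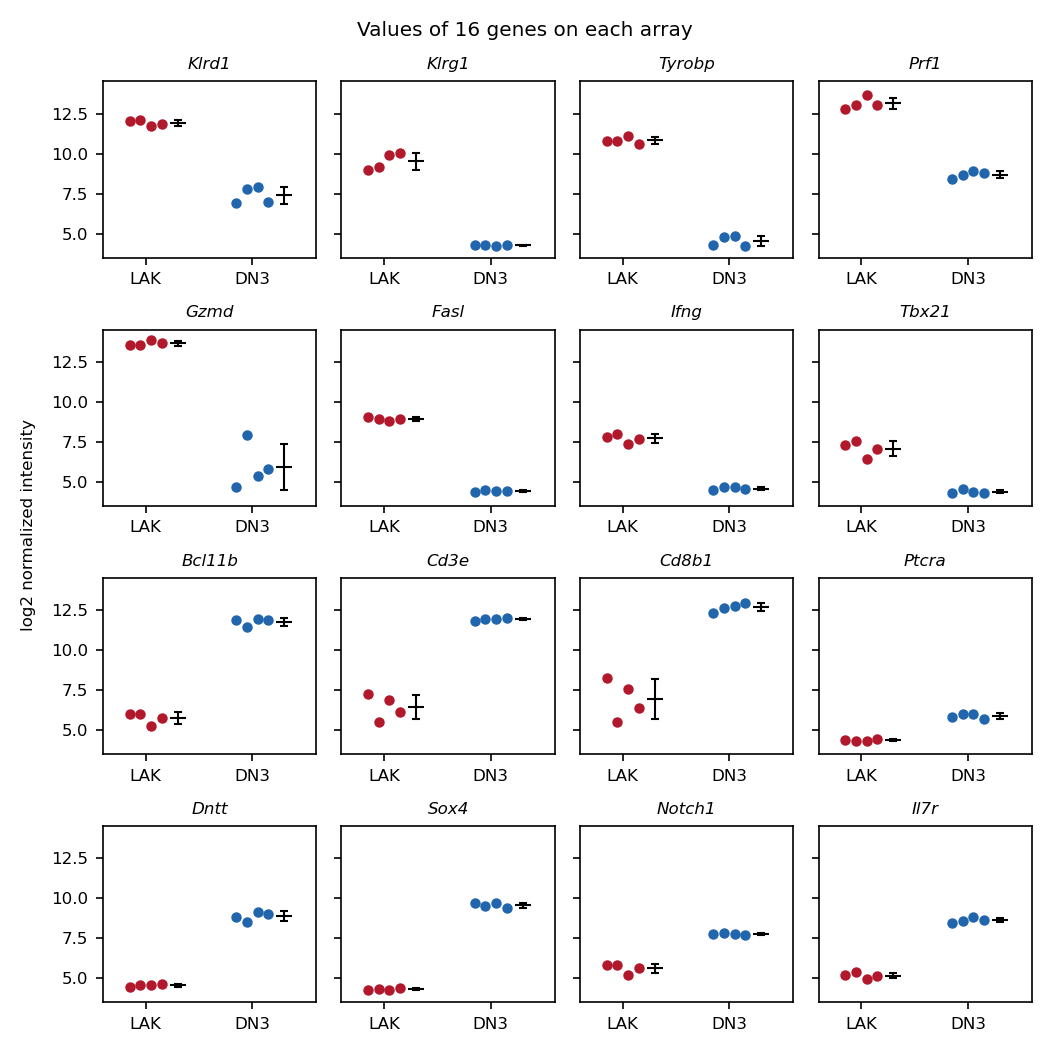
Log2 normalized intensity of 16 genes on each of the 4 LAK arrays (red, left) and 4 DN3 arrays (blue, right), in the order of the array numbers, with the mean and SD of each group in black. In every panel the groups do not overlap, and Cd3e and Cd8b1 spread most among the LAK arrays.

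Transcription factors of natural killer cells were split. Of 15 tested 9 were higher in LAK, 3 lower and 3 did not pass, with a median of 0.72 and a split of 11 and 3 under median scaling. Among the 15, 4 were detected on no DN3 array and passed the filter through other arrays. Tbx21 (T-bet) had 7.27, 7.54, 6.43 and 7.03 in LAK against 4.32, 4.53, 4.37 and 4.33 in DN3 and Eomes had 6.70, 7.08, 7.41 and 7.27 in LAK against 4.39, 4.23, 4.37 and 4.25 in DN3. They were at least 6.2-fold and 6.37-fold higher (adjusted p 7.22e-08 and 2.41e-08). LAK 3 was the lowest LAK array for Tbx21 and the highest for Eomes, 2 factors that share the T-box domain. Id2, the inhibitor of E proteins that NK development needs, had 10.45, 10.91, 10.69 and 10.66 in LAK against 7.77, 8.27, 8.04 and 7.79 in DN3, a difference of 2.71 ± 0.14 (SE). Irf8 and Bhlhe40, regulators of NK cell responses, differed by 4.41 ± 0.23 and 4.04 ± 0.22. Against the majority stood Klf2, which keeps lymphocytes quiescent, with 5.99, 6.0, 6.46 and 5.28 in LAK against 9.14, 9.61, 10.25 and 10.0 in DN3 and a difference of -3.82 ± 0.27. Ets1 and Tox, which both lineages use in development, were lower too, with differences of -1.95 ± 0.14 and -1.26 ± 0.19. Irf2 and Foxo1 did not pass, with means of 9.99 ± 0.18 and 7.44 ± 0.17 in LAK against 10.06 ± 0.15 and 7.52 ± 0.21 in DN3 (SD, n = 4 each), although a second Foxo1 probe was lower, with a difference of -1.28 (adjusted p 1.95e-06).

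Transcription factors of early T cells were lower in LAK cells. Of 15 tested 12 were lower, against 31.9% of all genes, 2 higher and 1 did not pass, with a median of -1.67. Among them 5 were detected on no LAK array and 2 on no DN3 array. These passed the filter through other arrays, so the count is a description. Bcl11b had 6.0, 6.01, 5.25 and 5.79 in LAK against 11.85, 11.41, 11.92 and 11.89 in DN3, a difference of -6.01 ± 0.20 (SE; adjusted p 1.39e-11). This probe was detected on all 4 LAK arrays and the 2 other Bcl11b probes on none of them, with means of 4.35 and 4.38 in LAK against 9.42 and 6.53 in DN3. Sox4, a factor of T cell precursors, had 4.27, 4.31, 4.30 and 4.41 in LAK against 9.68, 9.51, 9.71 and 9.38 in DN3 and was at least 36.8-fold lower (adjusted p 9.98e-12). Id3, which restrains E proteins after pre-T cell receptor signals, had 4.44, 4.28, 4.29 and 4.31 in LAK against 6.77, 7.14, 7.47 and 7.27 in DN3, so that Id2 and Id3 differed in opposite directions. Ikzf2 (Helios) was at least 5.96-fold lower, and Ets2, Satb1 and Gata3 differed by -2.60 ± 0.15, -2.22 ± 0.13 and -1.67 ± 0.13. The 2 members higher in LAK were Hhex, at least 11.5-fold, and Mef2c, at least 5.58-fold, factors that T cell precursors share with other progenitors. Gfi1 did not pass, with 7.91, 7.89, 8.56 and 8.38 in LAK and 8.40, 8.49, 8.41 and 8.61 in DN3.

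CD3 chains and proximal T cell receptor signalling were lower in LAK cells, with exceptions among the shared signalling proteins. Of 21 tested 15 were lower, 4 higher and 2 did not pass, with a median of -1.12. Among the 21, 4 were detected on no LAK array and passed the filter through other arrays. Counts higher and lower were 2 and 14 with slide as a block. Cd3e had 7.27, 5.53, 6.86 and 6.12 in LAK against 11.83, 11.95, 11.93 and 12.01 in DN3, a difference of -5.49 ± 0.27 (SE; adjusted p 6.84e-10). Cd3d had 8.42, 7.58, 8.56 and 7.65 in LAK against 13.10, 13.20, 13.10 and 13.15 in DN3, and Cd3g had 7.30, 6.73, 7.16 and 6.46 in LAK against 11.72, 11.82, 11.83 and 11.56 in DN3. The 3 CD3 genes are neighbours on chromosome 9. All 3 were higher on LAK 1 and LAK 3 than on LAK 2 and LAK 4, while the DN3 arrays differed by under 0.3 units. Trat1, which stabilises surface receptor complexes, had 4.67, 4.41, 4.41 and 4.40 in LAK against 10.34, 10.37, 10.27 and 10.28 in DN3 and was at least 57.3-fold lower. Lat, the linker that T cell receptor signals pass through, differed by -4.12 ± 0.20, opposite to its relative Lat2. Cd247, the zeta chain that NK cells use with Fc receptors, had a difference of -1.03 ± 0.12. Zap70, the kinase of that chain, did not pass, with 10.25, 10.37, 10.01 and 10.20 in LAK and 10.07, 10.24, 10.02 and 10.36 in DN3, and Bcl10 did not either. Its partner Malt1, a paracaspase, was higher, with 6.20, 6.61, 6.31 and 6.34 in LAK against 4.63, 4.70, 5.39 and 4.87 in DN3.

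The promoters of Cd3e and Ptcra, 2 genes that define the T precursor, are shown with the E-box letters that E proteins, the partners of Id2 and Id3, bind. The letters searched were CAGCTG, which reads the same on both strands, and CAGGTG with its reverse complement CACCTG, and none of these overlap each other in the sequences shown. Capitals mark the matches. The RefSeq stretches on GRCm38.p6 are chr9:45009562-45009861 for Cd3e and chr17:46763663-46763962 for Ptcra, both on the minus strand.
Cd3e: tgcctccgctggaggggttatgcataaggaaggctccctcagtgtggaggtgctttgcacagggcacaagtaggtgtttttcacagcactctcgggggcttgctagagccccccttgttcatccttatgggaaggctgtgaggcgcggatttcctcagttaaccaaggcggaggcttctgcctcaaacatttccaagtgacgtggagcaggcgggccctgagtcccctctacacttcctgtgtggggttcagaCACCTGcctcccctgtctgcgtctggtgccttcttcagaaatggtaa
Ptcra: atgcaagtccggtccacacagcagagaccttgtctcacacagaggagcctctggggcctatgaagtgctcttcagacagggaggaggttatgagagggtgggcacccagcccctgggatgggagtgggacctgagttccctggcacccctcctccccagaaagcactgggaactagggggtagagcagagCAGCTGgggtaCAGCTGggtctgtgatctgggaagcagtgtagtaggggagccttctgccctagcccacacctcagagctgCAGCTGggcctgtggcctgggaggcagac
Cd3e held 1 match and Ptcra 3. At least 1 match stood in 29.7% of 8510 promoters of tested genes (6648 genes matched by symbol), in 33.3% of the 807 promoters of genes at least 2-fold higher in LAK and in 34.4% of the 885 promoters of genes at least 2-fold lower. Over all 32851 promoters the share was 32.9%, so the shares lay close to each other, and a match describes the letters only.

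Coreceptors and costimulatory receptors leaned the same way. Of 15 tested 9 were lower in LAK, 4 higher and 2 did not pass, with a median of -0.85. Counts higher and lower were 4 and 7 under median scaling, where the median was -0.28, and 2 and 8 with slide as a block. Cd8b1, the beta chain of CD8, had 8.26, 5.49, 7.59 and 6.37 in LAK against 12.34, 12.63, 12.78 and 12.95 in DN3, a difference of -5.75 ± 0.45 (SE; adjusted p 8.56e-08). LAK 1 and LAK 3 were again the highest LAK arrays, more than 1 unit above the other two, and no LAK array reached the DN3 arrays. The probes of Cd8b1 disagreed in size, with differences of -4.50 and only -0.54 for the other two, the last with means of 8.65 in LAK and 9.19 in DN3. Cd6, a scavenger receptor of T cells, differed by -4.15 ± 0.16, Cd2, an adhesion receptor, by -2.88 ± 0.17 and Cd27, a costimulatory receptor, by -3.50 ± 0.19. Ctla4, the inhibitory receptor, was lower as well, with 4.68, 5.79, 6.38 and 5.61 in LAK against 8.63, 8.74, 8.67 and 8.89 in DN3. The largest difference the other way was that of Tnfrsf9 (4-1BB), an activation receptor, with 10.04, 10.22, 10.86 and 10.21 in LAK against 6.48, 6.57, 6.19 and 5.72 in DN3 (difference 4.10 ± 0.20, SE). Thy1, carried by both cell types, had 13.05, 12.87, 13.07 and 13.03 in LAK against 13.83, 13.89, 13.84 and 13.86 in DN3, a call lost under median scaling. Cd7 and Tnfrsf4 (OX40) did not pass, with means of 6.08 ± 0.51 and 5.28 ± 0.50 in LAK against 6.0 ± 0.39 and 5.07 ± 0.76 in DN3 (SD, n = 4 each).

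The 6 tested genes of recombination and the pre-T cell receptor were lower in LAK cells, with a median of -2.80, of which 4 were detected on no LAK array and could pass the filter only through other arrays. Dntt, the terminal transferase that adds bases at receptor joints, had 4.46, 4.58, 4.59 and 4.65 in LAK, detected on no array, against 8.85, 8.52, 9.17 and 9.05 in DN3. It was at least 20-fold lower (adjusted p 2.2e-09). Rag1, the recombinase, had 4.35, 4.40, 4.33 and 4.36 in LAK against 6.56, 6.36, 6.40 and 7.12 in DN3 and was at least 4.73-fold lower. Ptcra, the surrogate alpha chain of the pre-T cell receptor, had 4.37, 4.30, 4.33 and 4.47 in LAK against 5.80, 6.0, 6.03 and 5.67 in DN3 and was at least 2.79-fold lower. None of these 3 was detected on a LAK array, and the DN3 values of Ptcra and Rag1 were themselves within 3 units of the undetected level, so their folds are small bounds. Arpp21, a phosphoprotein, had 4.74, 4.62, 4.47 and 4.33 in LAK against 10.69, 10.81, 10.82 and 10.98 in DN3 and was at least 78-fold lower. Xrcc6 (Ku70), the DNA end-binding protein, had 10.07, 9.89, 9.73 and 9.78 in LAK against 13.29, 13.27, 13.09 and 13.19 in DN3, and its 2 other detected probes differed by -1.47 and -2.73. Il2ra, the CD25 chain that marks the DN2 and DN3 stages and also activated lymphocytes, had 5.46, 5.46, 6.16 and 6.29 in LAK against 6.95, 7.08, 6.85 and 6.87 in DN3, a difference of -1.09 ± 0.19 (SE). LAK 3 and LAK 4 were the higher LAK arrays for Il2ra, yet below every DN3 array.

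Notch receptors and targets were mostly lower in LAK cells. Of 8 tested 5 were lower, 1 higher and 2 did not pass. Notch1 had 5.82, 5.81, 5.21 and 5.67 in LAK against 7.75, 7.80, 7.79 and 7.71 in DN3, a difference of -2.14 ± 0.13 (SE), and Notch3 had 4.97, 5.63, 6.64 and 5.64 in LAK against 8.12, 8.04, 7.79 and 7.87 in DN3. Dtx1 (Deltex), a Notch target, was at least 16.5-fold lower (adjusted p 2.08e-10). Nrarp, a target that feeds back on Notch, was higher, with 7.09, 7.42, 6.53 and 7.01 in LAK against 5.74, 5.91, 5.46 and 6.06 in DN3. Myc and the cofactor Maml1 did not pass, with means of 6.44 ± 0.24 and 4.83 ± 0.28 in LAK against 6.40 ± 0.13 and 5.05 ± 0.26 in DN3 (SD, n = 4 each).

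Genes associated with gamma-delta T cells were high in DN3 samples. Trgv4, a variable segment of the gamma locus, had 6.88, 5.12, 5.39 and 5.90 in LAK against 10.96, 10.97, 11.02 and 11.08 in DN3. Cd163l1 (SCART1), a scavenger receptor, had 4.81, 5.30, 5.13 and 4.58 in LAK against 10.83, 10.90, 10.55 and 10.45 in DN3, and Blk, a Src family kinase, was at least 7.38-fold lower in LAK. All 3 tested members were lower in LAK, 1 or 2 of 7 genes were detected on each LAK array against 3 on each DN3 array, and their summed normalized signal was 182 to 257 on the LAK arrays against 3791 to 4141 on the DN3 arrays.

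Cytokine receptors went both ways, 8 higher and 8 lower of 19 tested. Il2rb, the beta chain for IL-2 and IL-15, had 6.80, 6.96, 7.38 and 6.84 in LAK against 4.27, 4.60, 4.42 and 4.47 in DN3 and was at least 5.82-fold higher. Il18r1, for IL-18, had 8.84, 8.84, 8.15 and 8.43 in LAK against 5.10, 5.77, 7.11 and 4.89 in DN3, with DN3 3 the highest DN3 array, and Il12rb1, for IL-12, differed by 2.22 ± 0.18. Il7r, the receptor that supports thymocytes, was lower, with 5.21, 5.37, 4.98 and 5.13 in LAK against 8.48, 8.58, 8.82 and 8.66 in DN3 (difference -3.46 ± 0.17, SE; adjusted p 5.88e-10). The interferon gamma receptor chains Ifngr1 and Ifngr2 were lower, with differences of -1.55 ± 0.10 and -1.42 ± 0.14 (SE). The TGF-beta receptor chains went opposite ways, Tgfbr1 with a difference of -1.44 ± 0.14 and Tgfbr2 with 1.35 ± 0.12. Il27ra and Il10rb did not pass, with means of 8.68 ± 0.37 and 6.08 ± 0.39 in LAK against 8.80 ± 0.32 and 5.69 ± 0.38 in DN3 (SD, n = 4 each).

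Downstream of these receptors 5 of 15 genes were higher, 4 lower and 6 did not pass, with 7 and 3 under median scaling. Cish, an IL-2 induced feedback inhibitor, had 9.98, 9.99, 9.96 and 10.11 in LAK against 8.37, 8.42, 8.77 and 7.99 in DN3, and the survival kinases Pim2 and Pim3 differed by 1.41 ± 0.17 and 2.58 ± 0.16. Socs3, a feedback inhibitor of IL-6 family signals, was lower, with 6.57, 6.80, 6.79 and 7.0 in LAK against 9.70, 9.53, 10.15 and 9.92 in DN3. Stat3 and Jak2 did not pass, with means of 8.88 ± 0.02 and 7.53 ± 0.20 in LAK against 8.94 ± 0.15 and 7.32 ± 0.09 in DN3 (SD, n = 4 each).

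Homing receptors and adhesion molecules went both ways, with 4 higher and 2 lower of 10 homing receptors and 6 higher and 6 lower of 16 adhesion molecules. Among all genes tested 28.6% were higher and 31.9% lower. The adhesion molecules gave 8 and 2 under median scaling and 6 and 3 with slide as a block. Ltb4r1, the leukotriene B4 receptor, had 9.74, 9.94, 10.78 and 10.24 in LAK against 4.53, 4.82, 4.57 and 4.89 in DN3 and was at least 44.5-fold higher (adjusted p 4.49e-09). Ccr2 and Cxcr3, which guide cells to inflamed tissue, were also higher, Ccr2 at least 3.77-fold and Cxcr3 with a difference of 1.72 ± 0.26. Cxcr4, the receptor for Cxcl12 that thymocytes use, had 4.44, 4.83, 4.46 and 4.52 in LAK, detected on no array, against 7.69, 7.92, 7.93 and 7.79 in DN3. Itgae (CD103), which binds E-cadherin, had 5.54, 4.91, 5.58 and 4.70 in LAK against 9.66, 10.14, 10.77 and 9.22 in DN3, a difference of -4.77 ± 0.28 (SE). Cd44, a hyaluronan receptor lost at the DN3 stage, had 8.69, 8.64, 8.16 and 8.42 in LAK against 6.26, 5.54, 5.73 and 5.89 in DN3, and Cd69, an activation antigen, differed by 2.15 ± 0.23. Icam2 was lower, with a difference of -2.52 ± 0.19. Icam1 and Cd53 did not pass, with means of 7.46 ± 0.12 and 7.23 ± 0.35 in LAK against 7.31 ± 0.18 and 6.75 ± 0.27 in DN3 (SD, n = 4 each). Of 4 Ly6 antigens 1 was higher and 2 were lower (1 and 1 under median scaling). Ly6d, a surface marker of early lymphoid cells, had 4.81, 4.48, 4.48 and 4.54 in LAK against 9.36, 9.28, 9.62 and 9.12 in DN3 and was at least 27.2-fold lower.

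Glucose transporters and glycolytic enzymes were higher in LAK cells. Of 15 tested 12 were higher, 2 lower and 1 did not pass, with a median of 0.87. Slc2a1 (GLUT1) had 9.75, 10.74, 11.46 and 10.63 in LAK against 8.63, 8.55, 8.70 and 8.39 in DN3, and Slc2a3 (GLUT3) had 9.61, 10.46, 10.75 and 10.29 in LAK against 7.79, 7.92, 8.13 and 7.54 in DN3. Aldoc, an aldolase, had 7.07, 8.80, 9.06 and 7.93 in LAK against 5.73, 6.10, 5.49 and 5.79 in DN3, and Pfkp, a phosphofructokinase, differed by 2.20 ± 0.19. LAK 1 was the lowest LAK array for 14 of the 15 genes, and without it 12 were still higher and 1 lower. Pfkm, another phosphofructokinase, was lower, with means of 7.67 ± 0.14 in LAK and 8.36 ± 0.19 in DN3 (SD, n = 4 each), so the isoforms went opposite ways. Hk1 did not pass, with 5.71, 5.88, 5.98 and 5.95 in LAK and 6.15, 5.47, 5.96 and 5.34 in DN3. The call of Pfkm was lost and the list's split became 12 higher and 0 lower under median scaling. With slide as a block 9 genes of the list were higher, 2 lower and 4 did not pass.

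Cholesterol synthesis was modestly higher, with 10 higher and 1 lower of 15 genes (12 and 1 under median scaling) and a median of 0.64. Cyp51, Lss and Msmo1, enzymes of the later steps, differed by 1.30 ± 0.13, 1.21 ± 0.09 and 1.16 ± 0.10. Dhcr7, the last enzyme of the pathway, was lower, with 5.88, 5.77, 5.62 and 5.86 in LAK against 6.66, 6.82, 6.90 and 6.44 in DN3. Fdps and Sqle did not pass, with means of 11.27 ± 0.16 and 9.48 ± 0.07 in LAK against 11.12 ± 0.22 and 9.23 ± 0.15 in DN3 (SD, n = 4 each).

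Calcium-binding S100 proteins, annexins and galectins were higher in 10 of 11 tested, with 0 lower and a median of 1.75. Lgals3 (galectin 3) had 12.70, 12.60, 12.91 and 12.80 in LAK against 8.11, 8.66, 9.09 and 7.92 in DN3, a difference of 4.31 ± 0.20 (SE; adjusted p 3.55e-10). S100a1, S100a6 and S100a10 differed by 3.31 ± 0.16, 1.92 ± 0.15 and 2.15 ± 0.19. Anxa6 did not pass, with 10.74, 10.62, 10.38 and 10.35 in LAK and 10.20, 10.38, 10.52 and 10.42 in DN3. Actin and myosin regulators gave 13 higher and 1 lower of 18. Scin (scinderin), an actin-severing relative of Avil, had 10.44, 10.17, 11.26 and 10.82 in LAK against 6.99, 6.94, 6.75 and 5.32 in DN3, and Myo1f, a myosin of leukocytes, differed by 3.24 ± 0.16. Myl10, described above, was the exception. Actb and Coro1a did not pass, with means of 14.27 ± 0.06 and 12.67 ± 0.31 in LAK against 14.11 ± 0.09 and 12.99 ± 0.07 in DN3 (SD, n = 4 each), and probes of Actb were called in opposite directions.

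Cell cycle genes did not separate the groups in 1 direction. Of 31 tested 4 were higher in LAK, 12 lower and 15 did not pass, with a median of -0.17. E2f2 was the exception in size, with 7.86, 7.78, 6.41 and 7.51 in LAK against 10.15, 9.94, 9.88 and 10.39 in DN3 and a difference of -2.70 ± 0.25 (SE). Mcm7, a helicase subunit, had 7.96, 7.97, 6.87 and 7.96 in LAK against 8.93, 8.56, 8.34 and 8.73 in DN3, and Cdk1, the mitotic kinase, had 9.93, 9.92, 9.17 and 9.89 in LAK against 9.35, 9.08, 8.80 and 9.07 in DN3 with a difference of 0.65 ± 0.18. The calls of both Mcm7 and Cdk1 were lost with slide as a block. Cenpa and Mcm5 did not pass, with means of 12.55 ± 0.28 and 11.11 ± 0.44 in LAK against 12.23 ± 0.19 and 11.48 ± 0.19 in DN3 (SD, n = 4 each). LAK 3 was the lowest LAK array for 29 of the 31 genes, at a median of 0.67 units below the group means, and DN3 3 the lowest DN3 array for 29 of 31. Leaving out LAK 3 turned the count to 10 higher and 7 lower, and median scaling gave 6 higher and 2 lower, and with slide as a block the counts were 0 and 1, so the direction of this list depended on 1 array and on the scaling.

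Of 15 cyclins, their kinases and inhibitors 4 were higher and 6 lower, and under median scaling 6 were higher and 3 lower (4 and 3 with slide as a block). Over all genes 28.6% were higher and 31.9% lower. Cdkn2b (p15) had 8.80, 8.13, 9.14 and 7.83 in LAK against 5.29, 5.17, 4.91 and 5.27 in DN3, a difference of 3.31 ± 0.26 (SE; adjusted p 9.71e-08), and its neighbour Cdkn2a had 7.97, 7.02, 7.57 and 7.07 in LAK against 5.96, 4.56, 4.66 and 5.29 in DN3. Cdkn1a (p21) had 10.53, 10.67, 11.27 and 10.74 in LAK against 8.98, 7.87, 8.40 and 8.29 in DN3. Ccnd1 (cyclin D1) had 4.60, 4.54, 4.49 and 4.49 in LAK, detected on no array, against 7.76, 6.11, 7.52 and 7.47 in DN3, with DN3 2 the lowest, as for the stromal genes. Cdk4 and Rb1 did not pass, with means of 10.02 ± 0.20 and 7.40 ± 0.29 in LAK against 9.86 ± 0.10 and 7.71 ± 0.17 in DN3 (SD, n = 4 each). Targets of p53, Cdkn1a among them, went both ways, 5 higher, 3 lower and 5 not past the test of 13 (8 and 2 under median scaling). These counts are read against the same shares of all genes. Trp53inp1 was lower, with 7.93, 7.89, 7.60 and 7.50 in LAK against 10.16, 10.16, 10.49 and 10.33 in DN3, and Ccng1 was higher by 1.04 ± 0.15.

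Immediate early genes, which respond to recent stimulation, were higher in 10 of 13 tested, with 1 lower and a median of 1.30. The split was 12 and 1 under median scaling, and the median 0.75 without background correction. Ier3 had 9.17, 9.55, 10.66 and 10.0 in LAK against 6.56, 6.23, 7.13 and 6.03 in DN3, and Fosl2 had 8.34, 8.60, 8.80 and 9.01 in LAK against 6.31, 5.66, 5.49 and 5.77 in DN3. Junb and Egr3 differed by 2.01 ± 0.27 and 2.33 ± 0.33. LAK 3 was the highest LAK array for 9 of 13 members and LAK 1 the lowest for 9. Fos was lower, with 4.95, 5.08, 5.05 and 5.22 in LAK against 6.07, 5.51, 5.79 and 5.79 in DN3, and Jun did not pass, with 5.80, 6.45, 6.97 and 6.46 in LAK and 6.14, 5.81, 6.59 and 5.69 in DN3. Of 32 phosphatases of the Dusp, Ptpn and Ptpr families 14 were higher and 7 lower (18 and 4 under median scaling). Dusp6, a feedback inhibitor of ERK signals, differed by 3.44 ± 0.15 and Dusp3 by 3.38 ± 0.27, and the receptor phosphatases Ptprs and Ptprf were lower, with differences of -2.60 ± 0.19 and -1.90 ± 0.16.

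Chaperones gave 7 higher and 1 lower of 11, none of them 2-fold apart, with 10 and 1 under median scaling and 4 and 1 with slide as a block. Hsp90b1, the chaperone of the endoplasmic reticulum, differed by 0.95 ± 0.16, and Dnajb1, a cochaperone induced by stress, was lower with 9.82, 9.86, 9.58 and 9.75 in LAK against 10.75, 10.46, 10.71 and 10.48 in DN3.

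Survival genes of the Bcl2 family were led by the Bcl2a1 copies, which are near-identical and uncertain as to which is measured. Bcl2a1b had 8.87, 9.31, 9.54 and 9.24 in LAK against 4.22, 4.39, 4.41 and 4.37 in DN3 and was at least 28.1-fold higher, and Bcl2a1d was at least 23.2-fold higher. Bcl2l2 (Bcl-w) differed by 1.71 ± 0.23. Of 14 members 8 were higher, 1 lower and 5 did not pass, with 10 and 1 under median scaling and 5 and 2 with slide as a block. The lower one was the death-promoting Bmf, with 5.11, 5.15, 5.72 and 4.73 in LAK against 6.51, 7.08, 7.21 and 6.61 in DN3. Mcl1 and Bcl2l11 (Bim) did not pass, with means of 9.17 ± 0.12 and 9.13 ± 0.31 in LAK against 9.41 ± 0.23 and 9.47 ± 0.20 in DN3 (SD, n = 4 each).

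MHC class II genes were lower in LAK cells, 6 of 8 tested, with 2 not past the test. With slide as a block 4 were lower and 4 did not pass, with a median of -1.44. H2-Oa, which tunes peptide loading, had 5.89, 6.02, 6.04 and 5.19 in LAK against 9.21, 9.50, 9.85 and 9.36 in DN3, a difference of -3.69 ± 0.20 (SE; adjusted p 1.47e-09). H2-DMa, the loading chaperone, differed by -2.78 ± 0.23, and H2-Ob was at least 5.17-fold lower. H2-Eb1, a chain of the surface molecule, had 4.82, 5.13, 4.72 and 4.97 in LAK against 6.16, 6.77, 8.28 and 6.66 in DN3. DN3 3 was the highest DN3 array for all 8 genes, and without it 6 were still lower, with a median of -1.45 in place of -1.90. In MHC class I and antigen processing, 3 were higher, 5 lower and 7 did not pass of 15, with 6 and 3 under median scaling and 5 and 5 without DN3 3. The shares over all genes were 28.6% higher and 31.9% lower. H2-Bl and H2-T10, nonclassical molecules, were lower, with differences of -3.57 ± 0.29 and -2.05 ± 0.28, as was the peptide transporter chain Tap2, with 9.12, 9.07, 9.37 and 9.06 in LAK against 11.14, 11.10, 11.36 and 11.14 in DN3. H2-Q7 was higher, by 1.59 ± 0.24, and B2m did not pass, with 13.12, 13.07, 12.73 and 12.85 in LAK and 12.54, 12.77, 13.31 and 12.75 in DN3. The median of this list turned from -0.27 to 0.07 under median scaling.

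Genes of the type I interferon response gave 7 higher, 3 lower and 6 not past the test of 16. The counts higher and lower were 7 and 1 under median scaling, 4 and 1 with slide as a block and 6 and 1 without DN3 2. Ifitm3, which blocks virus entry, had 11.80, 11.48, 12.28 and 11.81 in LAK against 9.31, 8.81, 9.90 and 8.65 in DN3, and Usp18, a brake on interferon signals, differed by 1.76 ± 0.27, with LAK 3 the highest. Ifit2 was lower, with a difference of -0.85 ± 0.13, and Isg15 and Bst2 did not pass, with means of 5.42 ± 0.37 and 6.48 ± 0.33 in LAK against 5.89 ± 0.38 and 6.81 ± 0.25 in DN3 (SD, n = 4 each). Of 6 GIMAP GTPases, which support lymphocyte survival, 3 were higher and 3 did not pass (5 and 0 under median scaling). Gimap7 differed by 1.01 ± 0.25 and Gimap5 by 1.20 ± 0.23, while a second Gimap5 probe, detected on all 8 arrays, did not pass, with means of 6.94 in LAK and 7.03 in DN3.

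The NuRD corepressor complex, a known partner of Bcl11b, had 6 of 10 subunits lower and 1 higher, against 31.9% and 28.6% of all genes. Chd3 had 5.91, 5.85, 5.79 and 5.84 in LAK against 7.20, 7.38, 7.61 and 7.74 in DN3, Mta3 differed by -1.02 ± 0.10, and Rbbp7 was higher by 0.58 ± 0.18. Under median scaling 3 subunits were lower and 1 higher, so the excess of lower subunits depended on the scaling.

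The basic machinery of the cell was close to level under quantile normalization. Cytosolic ribosomal protein genes gave 11 higher and 5 lower of 48, mitochondrial ribosomal ones 20 and 13 of 71, respiratory chain genes 12 and 10 of 64 and proteasome subunits 8 and 6 of 31. Their medians lay between 0.00 and 0.10. Median scaling moved those medians to between 0.46 and 0.56, with 37 ribosomal, 45 mitochondrial ribosomal, 45 respiratory chain and 17 proteasome genes higher, so no direction is given for these families. Single members stood apart. Cox6a2, the muscle isoform of a cytochrome oxidase subunit, had 4.58, 5.39, 6.03 and 4.45 in LAK against 8.62, 10.79, 10.21 and 9.30 in DN3, and Cox7a1, another muscle isoform, had 6.87, 7.23, 8.07 and 7.10 in LAK against 6.14, 5.38, 5.49 and 5.91 in DN3. Rps4l and Rpl3l, paralogs of ribosomal protein genes, were at least 3.2-fold higher and at least 2.67-fold lower in LAK.

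Solute carriers gave 39 higher and 34 lower of 127, near the 28.6% and 31.9% of all genes tested, with 54 and 22 under median scaling and 25 and 22 with slide as a block. Slc39a4, a zinc importer, had 8.94, 8.62, 8.95 and 8.39 in LAK against 5.39, 5.69, 5.53 and 4.92 in DN3, and Slc16a5, of the monocarboxylate transporter family, was at least 36.6-fold lower in LAK. Slc43a1, an amino acid transporter, was at least 10.5-fold lower and Slc5a9, of the sodium and glucose transporter family, at least 13.7-fold lower. Receptors named Gpr or Adgr gave 14 higher and 6 lower of 25 (8 and 5 with slide as a block). Gpr83 had 4.72, 4.54, 4.48 and 4.89 in LAK against 9.76, 9.55, 9.42 and 9.23 in DN3 and was at least 28.4-fold lower, while Gpr141 and Gpr34 were at least 8.22-fold and 5.26-fold higher. Of 33 Rab GTPases 11 were higher and 8 lower, near the shares of all genes, with 15 and 2 under median scaling and 7 and 3 with slide as a block. Rab3d, a GTPase of secretory granules, had the largest difference among them, 1.27 ± 0.14.

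Markers of stromal cells were detected in DN3 samples and, by the brightest probe of each gene, in no LAK sample. Of 25 such genes on the array, 0 were detected on each LAK array against 12 to 17 on each DN3 array, and their summed normalized signal was 540 to 550 on the LAK arrays against 2426 to 7527 on the DN3 arrays. The 14 that passed the detection filter did so without the LAK arrays, and that these were lower in LAK is given as a description. Bgn (biglycan), a matrix proteoglycan, had 4.22, 4.26, 4.32 and 4.31 in LAK against 11.28, 9.58, 10.14 and 11.04 in DN3 and was at least 71.7-fold lower. Cxcl12, a chemokine of bone marrow and thymus stroma, had 4.33, 4.33, 4.43 and 4.31 in LAK against 10.66, 8.64, 9.35 and 10.58 in DN3 and was at least 43.3-fold lower by this probe. Another Cxcl12 probe was detected on 1 of 4 LAK arrays and differed by -2.04. Col6a1, a collagen chain, had 4.35, 4.29, 4.41 and 4.33 in LAK against 10.41, 8.27, 8.53 and 9.80 in DN3, and Serpinh1, a collagen chaperone, was at least 15.5-fold lower. DN3 2 was the lowest DN3 array for all 14 genes and DN3 1 the highest for 10. The part of stromal RNA in the other DN3-high genes was not tested.

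Markers of further cell types were few. Of 16 myeloid genes on the array 1 or 2 were detected per array in both groups, with summed signals of 391 to 461 in LAK and 390 to 413 in DN3, and of 3 tested 1 was higher and 2 lower (1 and 0 with slide as a block). Cd14 was at least 2.93-fold higher in LAK, and Csf1r had means of 5.02 ± 0.08 in LAK and 5.29 ± 0.12 in DN3 (SD, n = 4 each), a call lost in several alternatives. Of 10 B cell genes 1 was detected on each LAK array and 1 or 2 on each DN3 array, with sums of 320 to 583 in LAK and 312 to 369 in DN3. The 2 tested went opposite ways, Cd72 at least 8.35-fold higher and Cd79b at least 5.45-fold lower in LAK. Mast cell and erythroid markers were detected for 2 to 4 of 13 genes in LAK and 3 to 5 in DN3, with summed signals of 331 to 465 in LAK and 397 to 665 in DN3, and 1 higher and 3 lower of 4 tested (1 and 1 with slide as a block). Cpa3, a mast cell protease also known from early progenitors, had 4.68, 5.06, 5.55 and 5.29 in LAK against 7.52, 7.35, 7.80 and 6.33 in DN3. Dendritic cell markers were detected for 3 or 4 of 12 genes in both groups, with sums of 1270 to 1730 in LAK and 2022 to 2247 in DN3, and 2 were higher and 1, Pld4, lower of 5 tested. Markers of mature T cells, which include Cd8b1, Il7r and Ctla4, summed to 572 to 814 in LAK against 6898 to 9933 in DN3. Of 7 tested 6 were lower in LAK and 0 higher (1 higher under median scaling). Foxp3, which marks regulatory T cells, did not pass by its brightest probe. That probe had 7.92, 8.0, 8.33 and 8.24 in LAK and 7.96, 8.11, 8.02 and 8.20 in DN3. Other Foxp3 probes were detected on 3 LAK and 4 DN3 arrays, on 0 and 2, and on 0 and 0, so its level is uncertain.

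Other named genes also had probes that disagreed. Second probes of Mcm7 and Pfkm did not pass, with differences of -0.33 and -0.08, nor did those of Cdkn2a, Cpa3 and Rbbp7, which were detected on few arrays, with 0.03, -0.20 and -0.0044. Among genes that did not pass by their brightest probe, second probes of Bcl2l11, Sqle, Zap70, Cenpa and Il10rb were higher, with differences of 0.55, 0.63, 0.36, 0.97 and 0.39, and those of Coro1a and Foxp3 were lower, with -0.38 and -0.58. Another bright probe of Actb did not pass either, with a difference of -0.23, while its remaining probes differed by 0.91, -1.59 and -1.77.

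Single arrays stood apart in ways that ran across lists. LAK 3 was lowest for most cell cycle genes, all 7 Ly49 genes and 4 of 6 chemokine genes, and highest for 12 of 16 granule genes and 9 of 13 immediate early genes. LAK 1 was lowest for glycolytic and immediate early genes. Over all genes LAK 3 held the lowest value of the 4 arrays in 2708 and the highest in 2674 of 8100, more often than any other LAK array. In DN3, array 3 was highest for MHC class II and lowest for cell cycle genes, and array 2 lowest for stromal genes. These array patterns were picked after the values were seen and describe these 8 arrays.

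**Figure D4:**
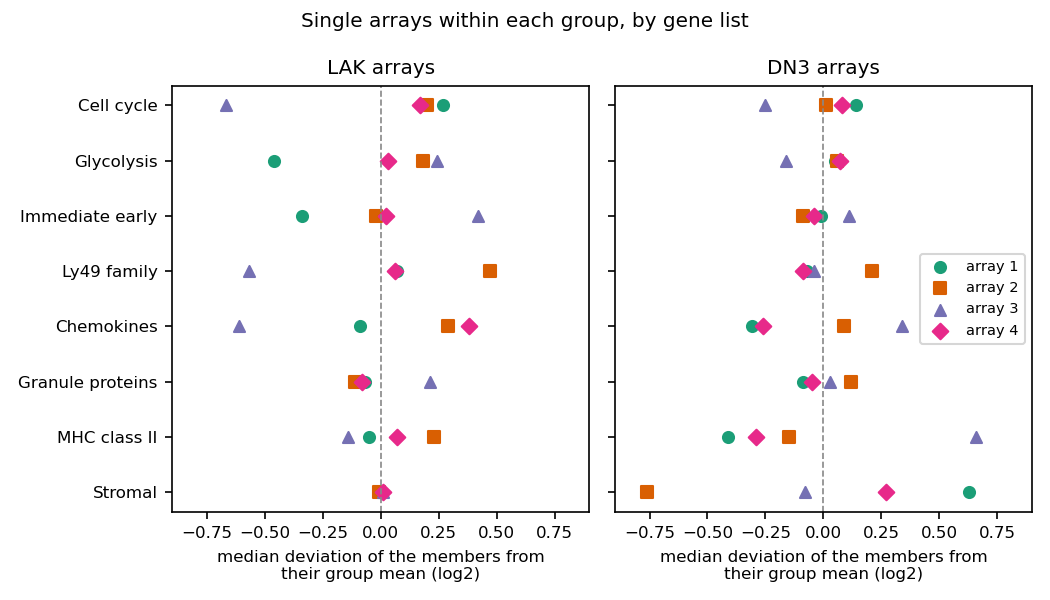
Median deviation, in log2 units, of the members of 8 gene lists on each array from their group mean, for the 4 LAK arrays (left) and the 4 DN3 arrays (right). LAK 3 lies at -0.67 for cell cycle genes and LAK 1 at -0.46 for glycolysis, while the stromal list spreads from -0.76 on DN3 2 to 0.63 on DN3 1.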

How the data were processed

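Total RNA of the 12 samples was hybridised to Illumina bead arrays as biotinylated cRNA, per the labels' protocols. The deposited table holds the mean bead intensity of 45281 probes per array with no normalization between arrays, per the file headers. Beside each intensity the authors deposited a detection fraction, the share of negative control beads that a probe exceeds, and 1 minus it was taken as the detection p. The authors also deposited log2 values of their own processing, whose method, centring and scanner software are not given in the sources used here. They served as an alternative.

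Intensities were corrected and quantile normalized with limma 3.58.1 in R 4.3.3 (neqc with an offset of 16, background taken from the detection values), which compresses differences near background. Of the probes, 13571 were detected at p under 0.01 on at least 4 of 12 arrays. The brightest probe with a single gene symbol stood for each gene, leaving 8100 genes, while 1804 kept probes had no single symbol. In 110 of the 2688 genes with several probes, probes were called in opposite directions. A model of 3 group means over 12 arrays gave the LAK minus DN3 contrast, with Benjamini-Hochberg adjustment over all genes. On simulated data the fit was checked for known changes.

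Genes were named as the 15 largest in each direction, the 4 largest, the largest exception and the 2 brightest not past the test in each of 49 lists, plus cell type markers. Cd2, Cd226, Cd247, Cd27, Cd96, Clec2d, Clec2i, Ets1, Ets2, Gabarapl1, Gata3, Gzmn, Hcst, Id2, Ifngr1, Ifngr2, Ikzf2, Klrb1a, Klri1, Klri2, Lamp1, Lat, Mef2c, Satb1, Slamf7, Tgfbr1, Tgfbr2, Thy1, Tigit and Tox were added after their values were seen. The comparison and the lists were chosen with earlier results of these data known. Genes whose rows are not in the files used were not analysed here. Alternatives covered background, offset, scaling, filters, probe choice, arrays fitted, slide, replicate number and each array left out. Promoters come from RefSeq tables.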

Additional observations from a re-analysis of the deposited data

Results flagged for a closer look

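In 21 of 490 groups of 4 values of the genes named, 1 array lay apart from the other 3 beyond Dixon's critical value, and chance alone marks about 1 group in 20. All values are log2 normalized intensities of single arrays.

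LAK 3 was the lone array most often. It stood at 6.866 for Mcm7 against 7.956 to 7.974 on the other LAK arrays, at 9.173 for Cdk1 against 9.89 to 9.925 and at 6.966 for Rb1 against 7.51 to 7.587, 3 genes of the cell cycle where it was low. It was high for Klrb1c, at 7.921 against 7.535 to 7.582, for Sytl3, at 8.816 against 8.325 to 8.4, and for Unc13d, at 8.32 against 8.121 to 8.146, both granule release genes. LAK 2 stood at 9.596 for Bcl2l11 against 8.945 to 9.055, at 6.534 for Ifit2 against 6.164 to 6.227 and at 4.992 for Itga2, undetected in LAK. LAK 1 stood at 11.04 for Fdps against 11.34 to 11.36 and at 4.67 for Trat1, undetected in LAK. LAK 4 stood at 4.379 for Cxcl9, also undetected.

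Among the DN3 arrays, DN3 2 stood at 11.41 for Bcl11b against 11.85 to 11.92. It was also apart for 3 genes undetected in DN3, at 4.471 for Bcl2a1d, 4.662 for Tigit and 4.753 for Zbtb32. DN3 4 stood at 11.49 for H2-T10 against 10.36 to 10.37 on the other DN3 arrays, and at 5.323 for Scin against 6.747 to 6.994. DN3 3 stood at 11.36 for Tap2 against 11.1 to 11.14 and at 8.529 for Sytl3 against 8.615 to 8.621. DN3 1 stood at 4.448 for Rps4l, undetected in DN3. Each of the genes of this paragraph kept its direction and its side of the threshold with any 1 array left out.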

How the results depend on the processing

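Slide and cell type cannot be told apart for LAK against DN3, probes near background limit low genes to bounds, and the arrays may be technical replicates. The number of genes past the test was 4560 to 5572 in all alternatives but 2, which gave 3524 among probes detected on all 12 arrays and 3322 with slide as a block, against 4903. The number at least 2-fold different was 989 without background correction, 982 with normexp, 936 in the authors' processed values and 833 among probes detected on all 12 arrays, against 1617, and leaving out 1 array gave 4568 to 4903 and 1566 to 1660. The median of the natural killer receptors was 1.87 without background correction and 1.865 with normexp. It was 2.065 with an offset of 50 and 1.78 in the authors' values. On probes detected on all arrays it was 3.42, over only 2 of 18 genes. It was 2.62 with the mean over probes and 3.36 with the slide block. In the same order of the first 5 settings the granule proteins gave 1.40, 1.399, 1.51, 1.34 and 1.55, the last over 9 of 16 genes. The first 4 gave the early T cell factors -0.98, -0.976, -1.10 and -0.90. T cell receptor signalling gave -0.80, -0.79, -0.88 and -0.77 there and -0.89 under median scaling. Recombination genes gave -2.08, -2.07, -2.21 and -1.96 there and -2.46 under median scaling. On probes detected on all arrays they gave -2.22, over only 2 of 6 genes. They gave -2.38 with the mean over probes and -3.42 with the slide block. The cause of these shifts was not tested. Without background correction and in the authors' values the immediate early genes gave 0.75 and 0.71 against 1.30 and MHC class II -1.10 and -1.07 against -1.90. On probes detected on all arrays 8 of 15 natural killer factors were left, with a median of -0.076. For Notch 3 of 8 genes were left there, with a median of 0.036. On the 8 arrays alone 2 of 3 myeloid genes were left, with a median of 0.63. These medians changed sign over fewer genes and are not like measures of the full lists. The ribosomal median turned to -0.044 with the slide block.

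Of 206 named genes past the test, 15 lost the call or changed sign in at least 1 alternative. Some differences changed sign. Under median scaling Bcl2l11 gave 0.046, Clec2d 0.40, Coro1a 0.30, Ctsc 0.14, Foxo1 0.20, Gfi1 0.040, Il27ra 0.21, Irf2 0.39, Lamp1 0.16, Lamp2 0.041, Mcl1 0.14, Mcm5 0.13, Rab27a 0.31, Stat3 0.28 and Sytl3 0.22. With slide as a block Bcl10 gave -0.11, Bcl2l11 0.031, Cd53 -0.072, Cd7 -0.0083, Ctsc 0.012, Foxp3 -0.040, Il15 0.091, Stat3 0.19 and Tnfrsf4 -0.20. With the mean over probes Actb gave -0.51, Bcl2l11 0.048, Foxp3 -0.26, Lamp2 0.25 and Stat3 0.11, and in the authors' values Clec2d 0.15, Irf2 0.040 and Stat3 0.055. Leaving out 1 array gave values of both signs for Cd7, Clec2d, Foxp3, Il27ra, Myc, Tnfrsf4 and Zap70, none of them past the test. The ranges were -0.16 to 0.26 for Cd7, -0.12 to 0.016 for Clec2d, -0.021 to 0.11 for Foxp3, -0.29 to 0.0010 for Il27ra, -0.044 to 0.13 for Myc, -0.015 to 0.43 for Tnfrsf4 and -0.018 to 0.10 for Zap70. Same-numbered LAK and DN3 arrays deviated together from their group means with correlations of -0.03 to 0.10 across genes, the highest for replicate 3. The labels do not say whether equal numbers mark paired arrays, and these correlations cannot decide it. With the replicate number as a block 4771 genes passed and 1617 were at least 2-fold different.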
